A study of Drosophila melanogaster with 46 samples.

Results

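The small RNAs of unselected ovarian somatic cell RNA are described here for 124 transposable elements (TEs), with the sense and the antisense strand of each TE set against each other. Ovarian somatic cells (OSC) are a Drosophila melanogaster culture derived from the follicle cells that surround the germline. The libraries are the 2 input libraries of the series, cloned from RNA that had not passed through an immunoprecipitation, and they were chosen by their labels, 2 of 46 samples in all. The labels name no genotype change and no knockdown for them, and nothing says whether they came from separate cultures, so that every p-value rests on the spread between libraries that may differ only technically. A comparison brings in the 2 libraries from a Piwi immunoprecipitate (Piwi-IP) of the same cells, also labelled without a knockdown. These Piwi-IP libraries also share the estimate of spread behind each SE and limma p-value of the strand test in input.

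The piRNA pathway guards genomes against transposons. In somatic follicle cells, long piRNA precursors come from unidirectional clusters such as flamenco, which holds fragments of many LTR retrotransposons, and the mature piRNAs are carried by Piwi, a nuclear Argonaute protein. An antisense small RNA can base-pair with the transcript of its TE, while a sense small RNA has the sequence of that transcript. The values cover TEs and no cellular genes, so the identity of the cells could not be checked with gene markers. The TE classes given below have no germline sample beside them and do not test it.

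Values are in RPM, that is, reads per 1000000 reads of the library. The library totals were 18861900 reads for input replicate 1 and 15327200 for replicate 2, so that 1 read is worth 0.0530 and 0.0652 RPM. A value of 0 allows up to 3 reads, or 0.159 and 0.196 RPM. These limits, and the intervals given with single values, allow for counting error alone: the labels describe no molecular identifiers that would mark PCR copies. How reads that match several TEs were assigned is not given in the sources used here, so elements with related names may share reads.

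Most of the TE signal was antisense. The sense sum over all 124 TEs was 12201 RPM in replicate 1 and 12371 RPM in replicate 2, against 211663 and 211337 RPM for the antisense sum. The antisense strand thus held 94.5% ± 0.057 of the TE signal (mean ± SD, n = 2, as for all ± values here). Without springer and copia, the elements with most sense small RNAs, it held 97.6% ± 0.022. The total hides a wide spread between elements: with each TE above the filter given below weighted equally, the mean antisense percentage was 70.1.

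The input replicates were close to each other. Among 76 TEs with at least 10 RPM antisense, the log2 ratio of replicate 2 to replicate 1 had an SD of 0.18, and 56 TEs lay within 0.1. Among 48 TEs with at least 10 RPM sense the SD was 0.13, and 26 lay within 0.1. The libraries still differed by more than counting error, as the chi-square statistic divided by its degrees of freedom was 2.42 for sense and 11.3 for antisense reads.

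Both strands were concentrated in few TEs, but the sense strand more so at the top. On the sense strand springer alone held 44.6% ± 0.16 of the signal, and 2 TEs were enough for 50%. The antisense strand needed 5 TEs for 50%, and its leading element held 16.2% ± 0.27. The 10 highest TEs held 79.3% ± 0.00068 of the sense and 71.7% ± 0.093 of the antisense signal. Further down the order the strands were alike: 90% of the signal took 21 TEs on the sense and 20 on the antisense strand, in both libraries. The effective number of TEs, the inverse of the sum of squared shares, was 4.44 ± 0.017 for sense and 13.2 ± 0.048 for antisense. With relatives of the same name summed as 1 element (Stalker, Stalker2 and Stalker4, for example), the 10 highest held 88.2% of the antisense signal.

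**Figure D1:**
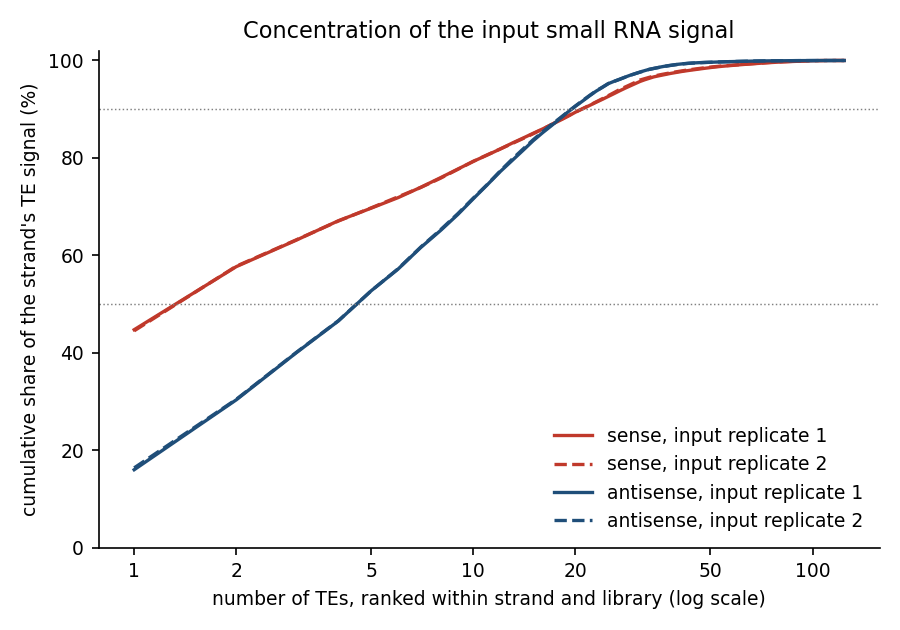
Cumulative share of the TE signal (%) against the number of TEs, ranked within each strand and library (log scale), for sense (red) and antisense (blue) in input replicate 1 (solid) and 2 (dashed), with dotted lines at 50% and 90%. The sense curve starts at 44.6% with springer and the antisense curve at 16.2% with 412, and the curves cross between 10 and 20 TEs, with the libraries nearly on top of each other.

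The leading TEs of the strands were different elements. The 10 highest TEs were the same in both libraries on either strand, and 0 of the 10 sense leaders were among the 10 antisense leaders. Among the 20 highest of each strand, 3 were shared, namely gypsy6, Stalker and Stalker4. Over the 122 TEs with any read, Spearman's rho between the mean sense and antisense levels was 0.30, a description only, since the points share the same libraries.

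The antisense leaders were all LTR retrotransposons. The highest, 412, of the mdg1 group, had 3.71 and 3.85 RPM sense in replicates 1 and 2, against 33926 and 34672 RPM antisense. Gtwin, a gypsy-group element, had 1.86 and 2.22 RPM sense, against 30356 and 29723 RPM antisense. These 2 elements held 30.4% ± 0.071 of the antisense signal, 412 with 70 and 59 sense reads against 639905 and 531431 antisense reads, and gtwin with 35 and 34 against 572569 and 455573.

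The next elements combined a high antisense level with quite different sense levels. Mdg1 had 11.1 ± 0.33 RPM sense and 20307 ± 67 RPM antisense, and rover, of the gypsy group, had 8.86 ± 1.2 RPM sense and 13867 ± 48 RPM antisense. Gypsy itself, the best-known target of flamenco, had 73.7 and 80.6 RPM sense, against 13132 and 12993 RPM antisense. Its sense level was thus higher than that of the 4 TEs above it. Gypsy5 was at the other end, with 1 sense read in each library against 176781 and 146293 antisense reads, or 9459 ± 122 RPM.

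Idefix, the errantivirus-like element often studied with ZAM, followed with 1.33 ± 0.24 RPM sense and 9428 ± 16 RPM antisense. Stalker4 and Stalker were nearly alike on both strands, at 115 ± 9.0 and 114 ± 6.7 RPM sense and 7395 ± 69 and 7002 ± 25 RPM antisense, and whether they share reads was not tested. The gypsy-group element 17.6 closed the antisense leaders with 58.2 ± 2.2 RPM sense and 6811 ± 68 RPM antisense. ZAM, the 18th by antisense level, had 1.06 ± 0.30 RPM sense and 2915 ± 160 RPM antisense.

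The sense leaders included other LTR elements, a LINE and a Helitron-like repeat. Springer, a gypsy-group element by class, had 5461 and 5509 RPM sense, against 549 and 575 RPM antisense. Copia, the name-giving element of its superfamily, had 1579 and 1640 RPM sense, against 103 and 107 RPM antisense. Springer was therefore the 33rd and copia the 44th TE by antisense level. Sense values of both elements lay far above their antisense values in each library, with no overlap. The same strand was higher in both libraries in most TEs: sense in 34 and antisense in 86 of 124, with 2 mixed.

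Transpac, another gypsy-group LTR element, had 663 ± 4.0 RPM sense and 45.0 ± 4.5 RPM antisense. Circe had 485 ± 5.3 RPM sense and 10.4 ± 0.025 RPM antisense, gypsy12 had 271 ± 12 and 3.63 ± 0.034 RPM, and the copia-type element 1731 had 198 ± 6.2 and 14.7 ± 1.3 RPM. The Helitron-like repeat DNAREP1 had 233 ± 9.2 RPM sense and 6.09 ± 0.76 RPM antisense. These 5 elements had a high sense level and a far lower antisense level, from 3.63 RPM in gypsy12 to 45.0 RPM in Transpac.

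The remaining sense leaders were abundant on both strands. Roo, a BEL/Pao element, had 325 ± 13 RPM sense and 1621 ± 30 RPM antisense. Gypsy3 had 247 ± 18 RPM sense and 840 ± 14 RPM antisense, and Doc, a LINE retrotransposon, had 227 ± 15 RPM sense and 2004 ± 33 RPM antisense. All 3 were antisense-rich in both libraries.

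**Figure D2:**
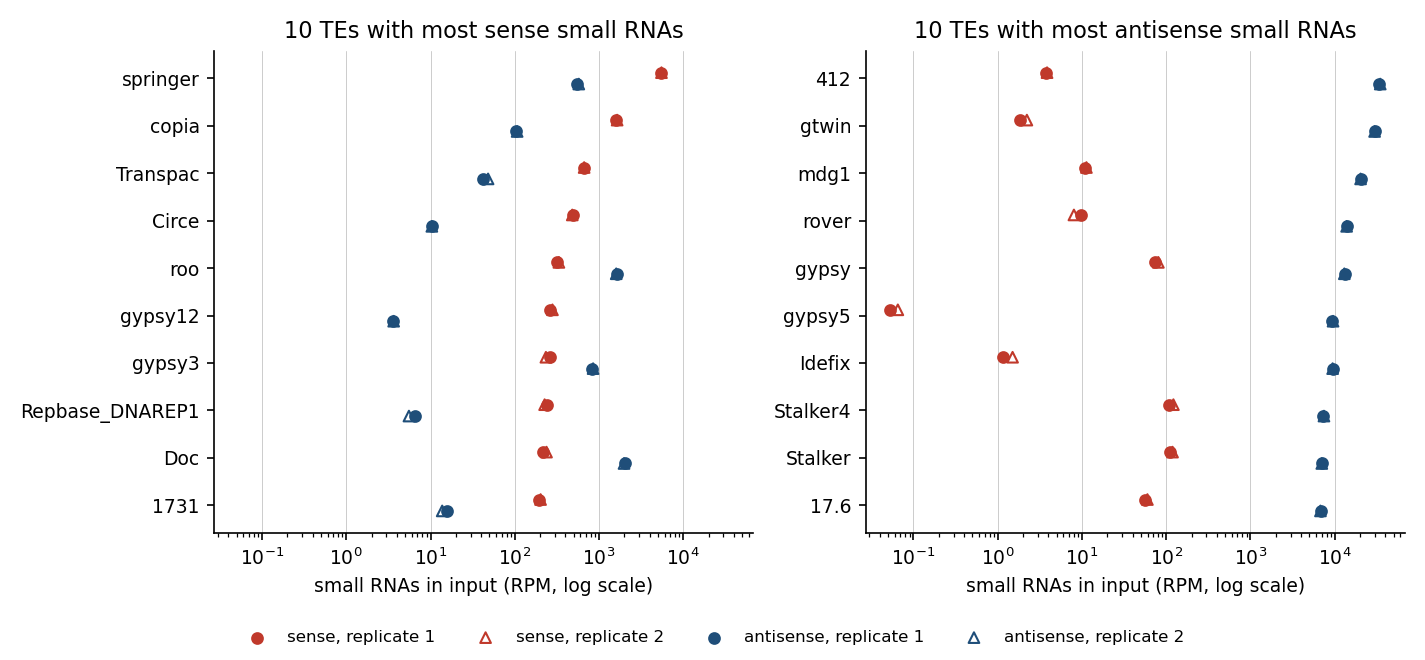
Small RNA level in input (RPM, log scale) of the 10 TEs with most sense (left) and most antisense small RNAs (right), with sense in red and antisense in blue and replicate 1 as filled circles and replicate 2 as open triangles. In the left panel 7 of 10 TEs have sense to the right of antisense, and in the right panel all 10 have antisense to the right of sense, from 17.6 at 6811 RPM to 412 at 34299 RPM.

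To ask which TEs had more of one strand than of the other, log2((sense + 1)/(antisense + 1)) was tested against 0 with limma in the 89 TEs with a mean sum of both strands of at least 10 RPM. S-element, at 10.5 RPM, was just inside this filter and G5A, at 9.98 RPM, just outside. An adjusted p under 0.05 was the threshold. In all, 88 of 89 TEs passed, 98.9% of those tested. More sense than antisense was called in 25 TEs (28.1%) and more antisense than sense in 63 (70.8%). Small differences passed too, so the size of the ratio is given beside the call.

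The ratios spanned a wide range, with a median log2 ratio of −3.14 over the tested TEs, and of 2.69 among the sense-rich and −5.26 among the antisense-rich ones. A difference of at least 2-fold in both libraries was seen in 77 of 89 TEs (86.5%), with sense higher in 21 and antisense higher in 56. At 10-fold in both libraries the counts were 11 for sense and 43 for antisense. At 100-fold they were 0 and 25, and at 1000-fold 0 and 9. Ratios of 100-fold or more were thus seen on the antisense side alone among these TEs, on this scale with 1 RPM added to each strand. The constant lets only TEs with a high level reach such ratios, and fewer had one on the sense strand. At least 100 RPM was reached by 20 TEs sense and 44 antisense, and at least 1000 RPM by 2 and 25. The counts at 100-fold and 1000-fold therefore partly follow from the levels.

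The 10 lowest ratios belonged to TEs with at most 11.3 RPM sense. Gtwin had −13.27 (SE 0.098, adjusted p = 1.69e-09), gypsy5 −13.12, 412 −12.81, Idefix −11.98, gypsy2 −11.49, mdg1 −10.72, ZAM −10.47, rover −10.46, gypsy10 −10.21 and G6, a LINE, −9.70. In gypsy5 and G6, at 1 or 2 sense reads per library, the ratio is set by the added 1 RPM. Gtwin, Idefix, gypsy2, ZAM and gypsy10, at 1.06 to 2.04 RPM sense, are also moved by it, so the order depends on this constant. Without it, antisense exceeded sense by 176781-fold and 146293-fold in gypsy5, on 1 sense read each, and by 16359-fold and 13399-fold in gtwin. For 412, without it, antisense exceeded sense by 9142-fold in replicate 1 (95% exact binomial interval 7235 to 11727) and by 9007-fold in replicate 2 (6983 to 11832).

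Tirant, an errantivirus-like gypsy-group element, and the LINE element Fw3 had 0 sense reads in both libraries. Tirant had 29.2 and 41.2 RPM antisense, at least 183-fold higher than the limit of 3 sense reads per library. Fw3 had 21.7 and 20.7 RPM antisense, at least 106-fold higher than that limit. Helitron and P-element had 0 reads on both strands in both libraries.

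At the other end, gypsy12 had the highest ratio at 5.88 (SE 0.089, adjusted p = 1.97e-08), followed by Circe at 5.42, INE-1 at 5.36 and DNAREP1 at 5.05. INE-1, a short Helitron-like repeat found in many copies, had 141 ± 6.3 RPM sense and 2.49 ± 0.75 RPM antisense. Whether it shares reads with DNAREP1, also a Helitron-like repeat, was not tested, and these entries may not be separate elements. The DNA transposon hopper had 4.59 with 111 ± 9.4 RPM sense and 3.63 ± 0.41 RPM antisense, and the LINE element BS had 4.07 with 117 ± 5.7 and 6.04 ± 0.23 RPM. Copia (3.93), Transpac (3.85), the BEL/Pao element diver (3.81) and 1731 (3.67) completed the 10 highest. The added 1 RPM moves this order too. Without it, sense exceeded antisense by 48.1-fold and 69.8-fold in INE-1, against 47.3-fold and 46.4-fold in Circe. The LTR element accord2 (3.39), outside the 10 highest, had 0.63 RPM antisense, less than the constant. Which TEs are among the 10 therefore also depends on this constant. Springer, at 3.28, had the most sense reads but not the highest ratio, with 562 ± 19 RPM antisense.

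**Figure D3:**
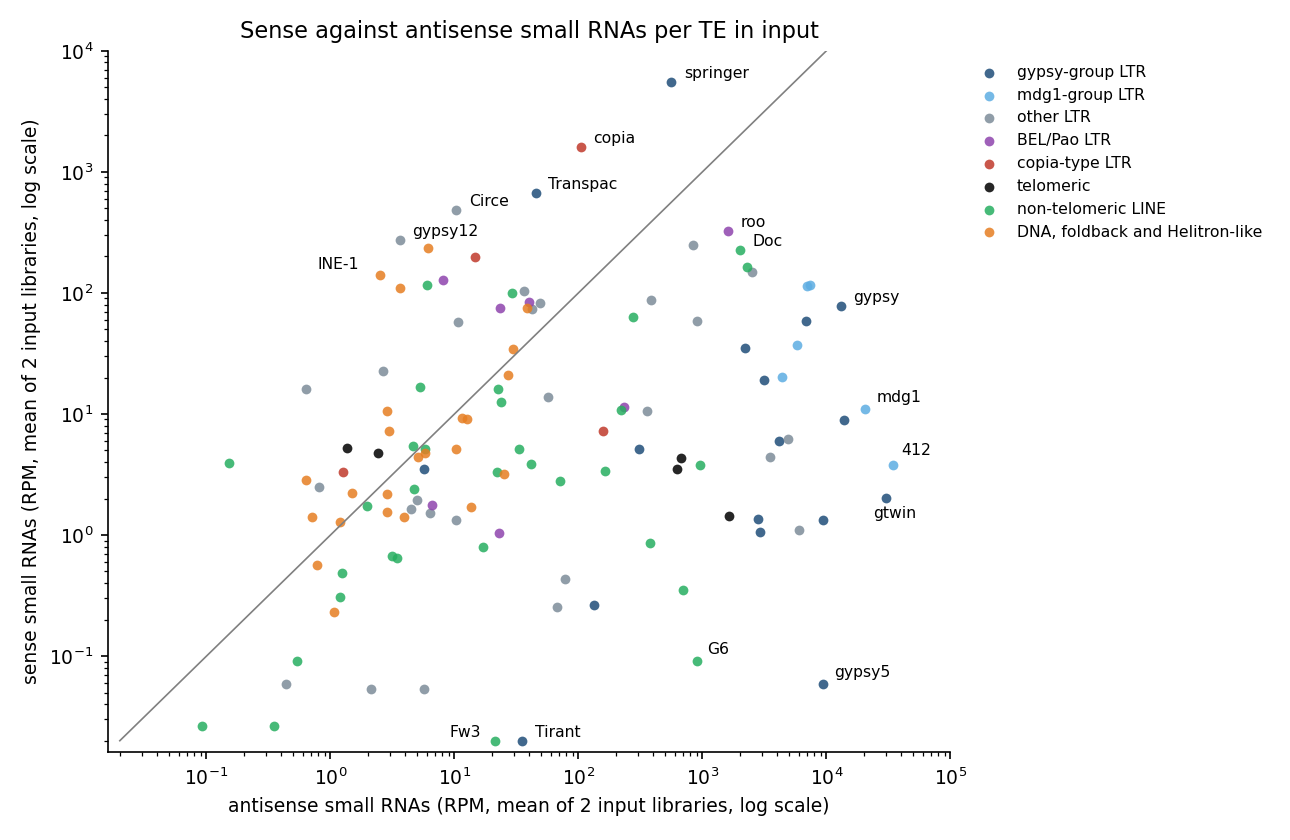
Mean sense level against mean antisense level of each TE with any read in input (RPM, mean of 2 libraries, log scales), coloured by class; the line marks equal levels, and TEs with no sense reads are drawn at the lower edge. Most TEs above 1000 RPM antisense lie far below the line, and springer, copia, Transpac, Circe and gypsy12 lie above it.

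The other 14 sense-rich TEs that passed had ratios of 0.21 to 3.39. Accord2 had 16.1 ± 1.1 RPM sense and 0.63 ± 0.16 RPM antisense, while its namesake accord was antisense-rich at 0.26 ± 0.0029 RPM sense and 134 ± 7.2 RPM antisense. Invader1, invader2, invader3 and invader4, all LTR elements, were sense-rich with ratios of 0.80, 0.73, 1.48 and 2.31, though invader2 did not pass with all 6 libraries in the fit (adjusted p = 0.0506). The BEL/Pao elements 3S18 (1.04) and diver2 (1.64), the LINE element Cr1a (1.76), Chimpo (2.69) and the DNA elements 1360 (0.96), Tc1-2 (1.58), transib3 (1.06) and FB4 (0.21) were also among them. The last was the LINE X-element, with 16.7 ± 1.0 RPM sense and 5.30 ± 0.44 RPM antisense. A further 9 TEs had more sense than antisense reads in both libraries but were below the filter and not tested. In frogger, gypsy8, HeT-A, R2-element, TAHRE and Tc3 the exact binomial 95% interval of the antisense percentage lay below 50 in both libraries. It spanned 50 in both libraries for G5A and NOF and in replicate 2 for Bari2. R2-element, a LINE that inserts into ribosomal RNA genes, had 3.92 ± 0.0061 RPM sense and 0.15 ± 0.063 RPM antisense, with sense higher in each library.

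A small set of TEs had nearly equal strands. In 12 of the tested TEs the difference was under 2-fold in at least 1 library, and 9 of these were DNA or LINE elements with sums under 100 RPM. The LINE element G5 was the 1 TE that did not pass, with 5.30 and 5.02 RPM sense against 6.15 and 5.48 RPM antisense (log2 ratio −0.14, SE 0.093, adjusted p = 0.178). Its antisense percentage was 53.7 in replicate 1 (exact binomial 95% interval 46.8 to 60.5) and 52.2 in replicate 2 (44.2 to 60.1). The foldback element FB4 had 36.2 and 32.9 RPM sense against 30.2 and 29.3 RPM antisense (0.21, adjusted p = 0.0342), and it lost the call without input replicate 1 (adjusted p = 0.258) or 2 (0.123), where the spread comes from the Piwi-IP libraries and the lone input library is assumed to vary like them. Hobo (−0.33), G4 (−0.48), hopper2 (−0.28), FB (−0.42) and S-element (−0.23) were called antisense-rich. Of these, G4 kept its call under every alternative run, while hobo, hopper2, FB and S-element lost theirs without either input library (adjusted p of 0.0510 to 0.257). Below the filter, Bari1 had 26 and 18 sense reads against 20 and 20 antisense reads, and so a different higher strand in each library. G7 had 1 and 0 sense reads against 1 and 2 antisense reads. R1A1-element (−0.88, adjusted p = 0.00369) also lost the call without either input library (adjusted p = 0.0793 and 0.0813).

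The classes differed in their ratios. These lists were drawn up with earlier results of these data known and are given as counts. Over all 89 tested TEs, 70.8% were antisense-rich and 28.1% sense-rich, and several classes hold few TEs. Of the 16 tested gypsy-group LTR elements, which include the errantivirus-like elements, 2 were sense-rich (springer and Transpac) and 14 antisense-rich, with a median log2 ratio of −7.33 against −3.14 over all tested TEs. All 6 of the mdg1 group were antisense-rich, at a median of −7.49. The 2 classes together made up most of the antisense signal, with 46.8% ± 0.36 and 37.4% ± 0.34. Without springer, antisense made up 99.1% ± 0.016 of the gypsy-group signal, and with it 94.0% ± 0.087.

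Other LTR elements were mixed. Of 20 tested in the remaining LTR list, 8 were sense-rich and 12 antisense-rich (median −2.03). The numbered gypsy elements of this list spread from gypsy2 at −11.49 to gypsy12 at 5.88. Gypsy5 (−13.12) and gypsy10 (−10.21) were in the gypsy-group list, so the contrast between these lists depends on how they were drawn up. Of 6 BEL/Pao elements, 3 were sense-rich (diver, diver2 and 3S18) and 3 antisense-rich (roo, rooA and the element listed as Dsim_ninja). Of 3 copia-type elements, copia and 1731 were sense-rich while Dm88 was antisense-rich, with 7.19 ± 0.93 RPM sense and 157 ± 1.7 RPM antisense.

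LINE elements were close to the whole table and DNA elements were split. Of 21 tested non-telomeric LINEs, 3 were sense-rich (BS, Cr1a and X-element), 17 antisense-rich and 1 not called, with a median of −3.14, the same as over all tested TEs, of which 70.8% were antisense-rich. Jockey2 had 0.86 ± 0.29 RPM sense and 379 ± 31 RPM antisense, and Helena had 0.35 ± 0.032 and 703 ± 5.2 RPM. Of 14 DNA, foldback and Helitron-like elements, 7 were sense-rich (INE-1 and DNAREP1 among them) and 7 antisense-rich, with a median of −0.01. Their summed signal was small, 685 ± 6.1 RPM sense and 212 ± 1.7 RPM antisense, and 23.6% ± 0.011 of it was antisense.

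The telomeric retrotransposons, which maintain fly chromosome ends, were split by element. TART-A, TART-B and TART-C were all antisense-rich, at 4.35 ± 0.22, 3.53 ± 0.19 and 1.45 ± 0.20 RPM sense and 669 ± 5.5, 627 ± 7.8 and 1622 ± 23 RPM antisense. HeT-A and TAHRE were low and lay below the filter. HeT-A had 4.93 and 4.57 RPM sense, against 2.12 and 2.74 RPM antisense, and TAHRE had 4.98 and 5.55 RPM sense, against 1.17 and 1.57 RPM antisense. In both, sense was higher in each library.

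The values of TEs known mainly as piRNA targets of the germline were also summed. With no germline sample to compare, these sums describe the libraries and cannot test their somatic label. The 16 of this list in the table held 7.37% ± 0.23 of the sense and 4.42% ± 0.026 of the antisense signal. Of the 11 tested, 1 was sense-rich (diver) and 10 antisense-rich, at a median of −4.24, beside 28.1% sense-rich, 70.8% antisense-rich and a median of −3.14 over all tested TEs. The I-element had 2.80 ± 0.17 RPM sense and 71.6 ± 3.8 RPM antisense, and Burdock, below the filter, had 3.34 and 3.65 RPM sense against 5.83 and 5.61 RPM antisense. F-element, Doc, TART-C and roo, at 2293, 2004, 1622 and 1621 RPM antisense, made up most of the list's antisense signal. In such bulk RNA, few cells with many of these small RNAs and many cells with few cannot be told apart.

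**Figure D4:**
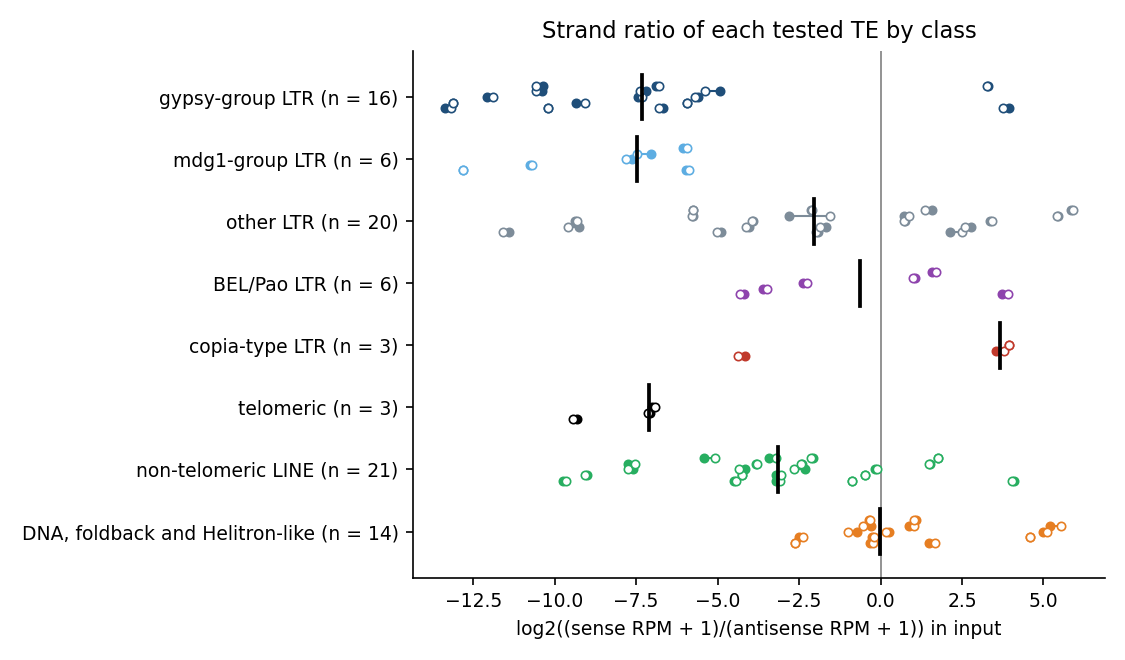
Log2 ratio of sense to antisense (1 RPM added to each) of the 89 tested TEs by class, replicate 1 as filled and replicate 2 as open circles joined by a line, black bars marking class medians. The gypsy-group and mdg1-group medians lie at −7.33 and −7.49, with springer and Transpac as the 2 gypsy-group elements right of 0, and the DNA class is centred at −0.01.

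The TEs were also counted by the sum of both strands, which the antisense level largely sets, so the bins describe the table and are not independent of the strand balance. Among the 28 TEs with a sum of at least 1000 RPM, 2 had more sense (springer and copia) and 26 more antisense in both libraries, and the median antisense percentage was 99.5. Between 100 and 1000 RPM, 15 of 31 TEs had more sense and 16 more antisense, at a median of 81.3%. Between 10 and 100 RPM, 8 of 30 had more sense and 22 more antisense (66.0%), and between 1 and 10 RPM 9 of 29 had more sense and 19 more antisense (62.1%). The 4 TEs with reads but under 1 RPM had a median of 86.1%.

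The last question was whether the strand balance of unselected RNA differs from that of small RNAs bound by Piwi. Of 89 TEs tested, 3 (3.37%) passed by limma, all with less sense relative to antisense in Piwi-IP, and 15 had an unadjusted p under 0.05. The median difference of the log2 ratio over all 89 was −0.05. R1A1-element, a LINE that inserts into ribosomal RNA genes, had 3.52 and 2.08 RPM sense and 21.4 and 24.3 RPM antisense in Piwi-IP, against 12.4 ± 0.039 RPM sense and 23.7 ± 0.23 RPM antisense in input. Its log2 ratio was −2.67 ± 0.52 in Piwi-IP and −0.88 ± 0.0093 in input, a difference of −1.80 (SE 0.25, adjusted p = 0.0327).

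Rt1b, another LINE, had 2.66 ± 0.094 RPM sense and 30.9 ± 0.49 RPM antisense in Piwi-IP, against 3.31 ± 0.34 and 22.2 ± 1.4 RPM in input (difference −0.70, SE 0.10, adjusted p = 0.0327). The gypsy-group element 297 had 25.0 ± 1.7 RPM sense and 2461 ± 5.0 RPM antisense in Piwi-IP, against 34.9 ± 0.65 and 2210 ± 31 RPM in input (difference −0.62, SE 0.097, adjusted p = 0.0327). In all 3 the libraries of the groups did not overlap in the ratio. This also held in TEs that did not pass, such as rover, at −11.01 and −11.19 in Piwi-IP against −10.34 and −10.58 in input. Such separation of 2 against 2 libraries therefore does not mark out the 3 TEs. With 1 input library left out, the spread comes from the Piwi-IP pair alone, and the remaining input library is assumed to vary like it. By limma 0 TEs then passed without input replicate 1 or without input replicate 2 (8 at an unadjusted p under 0.05 in each case), and 1 passed without either Piwi-IP library. The count also moved with the added constant, at 0 with 0.1 RPM (11 unadjusted) and 10 with 10 RPM.

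**Figure D5:**
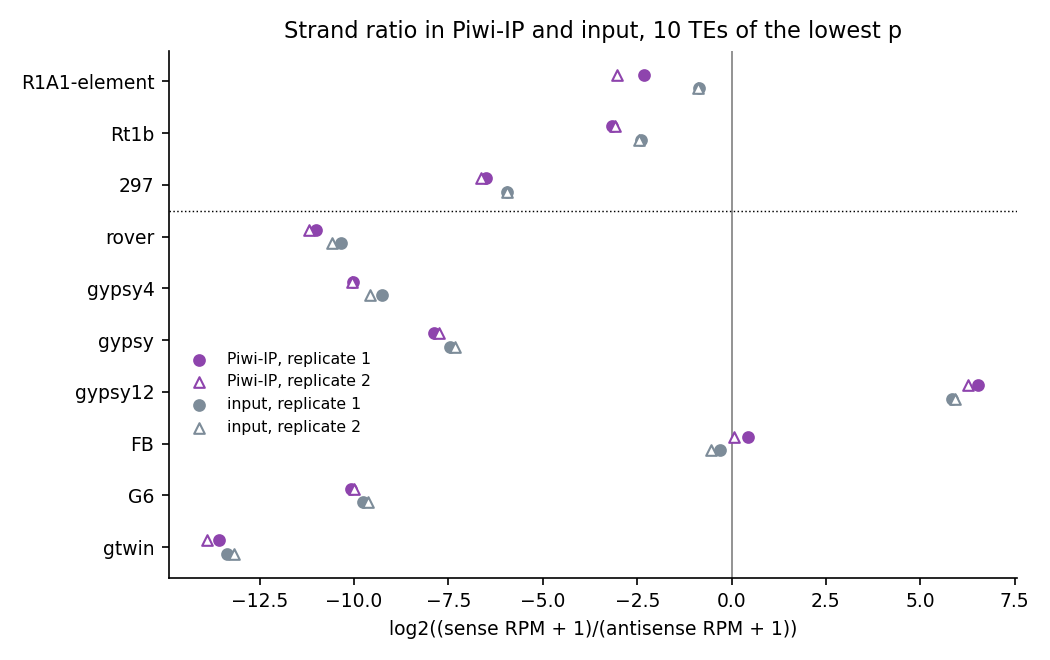
Log2 ratio of sense to antisense (1 RPM added to each) in Piwi-IP (purple, upper of each row) and input (grey, lower) for the 10 TEs of the lowest p, replicate 1 as filled circles and replicate 2 as open triangles. The 3 TEs above the dotted line, R1A1-element, Rt1b and 297, passed the threshold. Each has both Piwi-IP values left of both input values, as do rover, gypsy4, gypsy, G6 and gtwin, which did not pass. Gypsy12 and FB, which did not pass either, have both Piwi-IP values right of both input values.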

How the data were processed

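The TE values are RPM as deposited by the authors. The table names no unit: it was read from the values, since every value of a library is a whole multiple (within 0.001 reads) of 1 step, and 1000000 divided by that step gives the library total. Per the submitters' processing notes, the tools were Bowtie 0.12.7, cutadapt 1.0, bedtools 2.16.1 and SAMtools 0.1.16, with build dm3 and no roles given. The size range, mismatches and the treatment of reads matching several TEs are not given in the sources used here.

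Strand ratios, log2((sense + 1)/(antisense + 1)), were fitted with limma 3.58.1 (R 4.3.3; eBayes with a trend over the level) in the 2 input and 2 Piwi-IP libraries, a mean per group, for TEs with a mean sum of at least 10 RPM in input. CG9754-IP was left out of this fit because its libraries varied more (SD over 89 TEs of the log2 ratio between replicates 0.47, against 0.25 in Piwi-IP and 0.21 in input); it enters as an alternative. P-values are two-sided and Benjamini-Hochberg adjusted over all 89 TEs, with a threshold of 0.05. A count test on recovered reads was planned but not run, since fewer than 100 low values per column show the step. Shares, sums and ranks were computed per library and averaged, with no test: 2 libraries against 2 cannot give an exact permutation p below 0.333.

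The input test was tried on 20 simulated tables of 88 TEs (log2 noise SD 0.1): limma called 94.5% of strand differences of 1.5-fold and 98.0% of 2-fold ones, and made 1 false call per table. Every simulated TE had the same noise, and the strands were equal in all but 20 TEs per table. These rates may therefore not carry over to the data. Alternatives were other constants, filters, library sets and left-out libraries. Named TEs are the 10 highest on each strand, the 10 highest and lowest ratios, all with more sense than antisense, with strands that differ between libraries or with no reads, those called against Piwi-IP, and HeT-A, roo, I-element, gypsy, ZAM, Idefix, copia and springer; further TEs were named after their values were seen. The members, lists and rules were chosen with earlier results of these data known. Other tools were Python 3.11.15, numpy 2.4.6, pandas 2.3.3, scipy 1.17.1 and matplotlib 3.10.9. Chimpo, Chouto, DNAREP1, FB4 and Rt1b are listed with the prefix Repbase.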

Additional observations from a re-analysis of the deposited data

Results flagged for a closer look

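The sense to antisense ratio of 3 TEs differed between Piwi-IP and input by a test of the difference itself. On the log2 scale R1A1-element differed by −1.80, Rt1b by −0.70 and 297 by −0.62, all lower in Piwi-IP. Over the alternatives the adjusted p (limma) ranged from 2.0e-20 to 0.387 for R1A1-element, from 4.9e-05 to 0.387 for Rt1b and from 3.6e-04 to 0.387 for 297. The lowest of each came with the replicate block, which leaves 1 residual degree of freedom. The difference was negative under every alternative run, at −2.16 to −0.78 for R1A1-element, −0.78 to −0.42 for Rt1b and −0.69 to −0.52 for 297.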

How the results depend on the processing

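The count of TEs with a strand difference in input (88) stayed within 1.5 times under each alternative run. It ran from 59 with a filter of 100 RPM, where 59 were tested, to 115 with no filter, where 122 were. From the input libraries alone, which leave 1 residual degree of freedom, it lost 0 of these 88 calls. It was 82 to 88 with 1 library left out; without an input library, the lone one is assumed to vary like the Piwi-IP pair. No called TE changed sign, and 7 lost the call somewhere: FB, R1A1-element, FB4, S-element, hobo and hopper2 without either input library, FB4, S-element, hopper2 and invader2 with all 6 libraries, and S-element with 10 RPM added or the replicate block.

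The antisense percentage of 94.5 was 93.5 without 412 and 70.1 with TEs weighted equally. The share of the 10 highest TEs (71.7%) was 88.2% with relatives summed and 79.3% on the sense strand, where 2 TEs and not 5 held 50%. The 3 calls of Piwi-IP against input became 0 with 0.1 RPM added (11 at an unadjusted p under 0.05 by limma), 10 with 10 RPM added, 5 with no filter, 1 with all 6 libraries and 0 to 1 with 1 library left out; the cause was not tested. With the replicate number as a replicate block 12 passed, 3 higher and 9 lower. The numbers are not known to pair samples: deviations of same-numbered libraries correlated at 0.31 over 89 TEs. The planned count test was not run. Values under 1 RPM rest on few reads, and the ratio of TEs with under 3 sense reads is set by the added constant.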

Other observations

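A few TEs differed between the input replicates far more than the rest. Chouto had 14.5 and 6.20 RPM antisense, a log2 change of −1.23 between replicates that was the lowest among 76 TEs, beside 1.22 and 1.44 RPM sense. Tirant had 29.2 and 41.2 RPM antisense (0.50, the highest), and gypsy11 had 56.4 and 76.9 RPM antisense with 0.053 and 0.46 RPM sense. On the sense strand Stalker2 had 42.4 and 31.5 RPM, a log2 change of −0.43.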
